A study of Mus musculus with 24 samples.

Results

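The genes described here are 7 genes that mark cholinergic neurons of the basal forebrain: Chat, Slc18a3, Slc5a7, Chrm2, Ngfr, Lhx8 and Gbx1. They were selected by symbol because they had been seen higher in overfed mice on d14, so their d14 difference is the value that chose them and is given as a description without a test. The deposited hypothalamus table holds 55471 genes, of which 18992 passed the filter on low counts, and all 7 of the selected genes were among these. The rule has no numeric threshold, and the smallest d14 difference among the genes is that of Slc18a3.

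Hypothalami were taken from 18-week-old male C57BL6/J mice that had free access to chow and carried an intragastric catheter. In the experimentally overfed (ExpOF) groups a sucrose-supplemented liquid diet was pumped into the stomach for 14 days, while Control mice received sterile water through the same kind of catheter. ExpOF d14 and Control d14 mice were killed on day 14, at the end of overfeeding. ExpOF d14+3 and Control d14+3 mice were killed on day 17, after 3 days in which both groups were infused with water only. Chow stayed freely available in these days. The paper reports that overfed lean mice stopped eating chow before the end of overfeeding and regained their intake only gradually after it. Each of the 4 groups held 6 mice, 1 library per mouse, killed in a July or a September cohort with RNA extracted in round 1 or round 2. All mice were male, and the tissue was a whole dissected hypothalamus, so a lower level of a gene can mean fewer cells of a type or less RNA per cell, which cannot be told apart here.

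The study left 1 Control d14 mouse out for poor RNA quality, and the library that was left out is Control d14 replicate 4, with 10922271 counts and a labelled RNA integrity number (RIN) of 9.8. Values are therefore given for 23 libraries (5 Control d14, 6 in each other group) with totals between 8928182 and 34848437 counts, and results that involve Control d14 are given again with all 24. The 14 hypothalamic marker genes, among them Pomc, Npy and Hcrt, had counts in every library. Their summed level was 630 to 1538 CPM (counts scaled to the size of the library) in the 23 libraries and 3050 CPM in Control d14 replicate 4. Markers of neighbouring regions were also present, as the summed level of 6 thalamic genes (Tcf7l2, Prkcd, Tnnt1, Ramp3, Lef1 and Gbx2) ran from 73.8 to 640 CPM. Of 5 brainstem and spinal motor neuron markers, Mnx1 was at 0 in every library, and the summed level of the list did not pass 1.53 CPM.

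Cholinergic neurons make acetylcholine from choline and acetyl-CoA with choline acetyltransferase, load it into vesicles through a vesicular transporter and recover choline from the synapse through a high-affinity uptake transporter. The cholinergic neurons of the basal forebrain, in the septum, diagonal band, preoptic area and nucleus basalis, project to the cortex and hippocampus and carry the low-affinity neurotrophin receptor p75 (Ngfr). LIM homeodomain factors such as Lhx8 specify these neurons in the ventral forebrain.

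Chat encodes choline acetyltransferase and Slc18a3 the vesicular acetylcholine transporter, and both genes are read from the minus strand of chromosome 14. In the deposited table Chat spans chr14:32408203-32465957 and Slc18a3 lies inside it at chr14:32462438-32464850 (mm10). The pair shared 0 exon bases in GENCODE vM21, so reads from the exons of either gene are not counted for the other. Unspliced Chat RNA that runs across Slc18a3 would still be counted for Slc18a3, and its share was not measured. Slc5a7, the high-affinity choline transporter, lies on the minus strand at chr17:54273590-54299034. The stretches before the starts of these 3 genes are shown because they are the enzyme and the transporters that define the cholinergic phenotype, and because Chat and Slc18a3 share 1 locus. They are RefSeq sequences of GRCm38.p6, taken from the 250 bases before the annotated start without any base that GENCODE vM21 places in an exon. Capitals mark the GC-box core CCGCCC or its reverse complement GGGCGG.
Chat, chr14:32465990-32466159, minus strand: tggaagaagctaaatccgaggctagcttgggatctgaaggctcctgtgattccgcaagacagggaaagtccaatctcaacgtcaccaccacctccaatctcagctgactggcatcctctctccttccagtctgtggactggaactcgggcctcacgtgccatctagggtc
Slc18a3, chr14:32464851-32465041, minus strand: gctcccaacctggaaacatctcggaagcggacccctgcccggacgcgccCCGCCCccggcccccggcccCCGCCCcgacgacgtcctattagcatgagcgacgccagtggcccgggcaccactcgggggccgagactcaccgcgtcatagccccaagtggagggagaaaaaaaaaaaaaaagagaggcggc
Slc5a7, chr17:54299035-54299284, minus strand: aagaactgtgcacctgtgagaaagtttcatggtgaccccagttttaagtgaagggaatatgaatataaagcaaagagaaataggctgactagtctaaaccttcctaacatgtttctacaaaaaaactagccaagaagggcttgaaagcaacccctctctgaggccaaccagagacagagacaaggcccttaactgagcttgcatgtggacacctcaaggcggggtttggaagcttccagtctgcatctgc

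Promoter windows of 250 bases before the RefSeq start were found for 6 of the 7 genes (all but Gbx1). Exons of any gene in GENCODE vM21 covered 250 bases of the Chrm2 window, 99 of Lhx8 and 80 of Chat. They covered 59 bases for Slc18a3, 37 for Ngfr and 0 for Slc5a7, so a match can lie in an exon. On both strands CCGCCC was present 4 times before Ngfr, 2 times before Slc18a3 and 1 time before Chrm2, without overlap, and was not in the windows of Chat, Slc5a7 and Lhx8, while 32.7% of all 32851 mouse windows of this length hold it. The homeodomain core TAATTA (4.84% of all windows) and the cyclic AMP response element TGACGTCA (1.55%) were in none of the 6 windows. The GC content of the windows ran from 45.6% (Slc5a7) to 70.4% (Ngfr), beside a median of 52.4% over all windows.

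The remaining genes are a receptor for acetylcholine, a receptor for neurotrophins and 2 transcription factors. Chrm2 (chr6:36388084-36528414, plus strand) encodes the M2 muscarinic receptor, which acts as an inhibitory autoreceptor on cholinergic terminals. Ngfr (chr11:95568818-95587735, minus strand) encodes p75, Lhx8 (chr3:154306294-154330659, minus strand) a LIM homeodomain factor of ventral forebrain cholinergic neurons, and Gbx1 (chr5:24502757-24527202, minus strand) a homeodomain factor expressed in basal ganglia and cholinergic lineages. Of these, only Chrm2 shared exon bases with another gene: 142 bases, or 2.35% of its exon sequence, overlap the long noncoding RNA 9330158H04Rik on the opposite strand. Libraries were prepared with a stranded kit, and whether the counting used strand is not given in the sources used here.

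Per kilobase of exon, Chrm2 and Ngfr were the most abundant of the 7 genes and Gbx1 the least. In Control d14+3 mice Chrm2 was at 4.84 ± 0.969 RPKM (reads per kilobase of exon, scaled to depth as in CPM; SD, n = 6) and Ngfr at 4.48 ± 1.15. Next came Lhx8 at 2.45 ± 1.00 and Slc5a7 at 2.19 ± 0.786. Chat at 1.62 ± 0.646, Slc18a3 at 1.53 ± 0.361 and Gbx1 at 0.879 ± 0.506 were the lowest (RPKM, SD, n = 6). Neighbours in this order differed by less than the SD between mice, except for the steps from Ngfr to Lhx8 and from Slc18a3 to Gbx1. Over the 4 groups the mean RPKM ranged from 1.22 to 2.07 for Chat, up to 3.03 for Slc5a7 and from 0.436 to 1.03 for Gbx1.

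**Figure D1:**
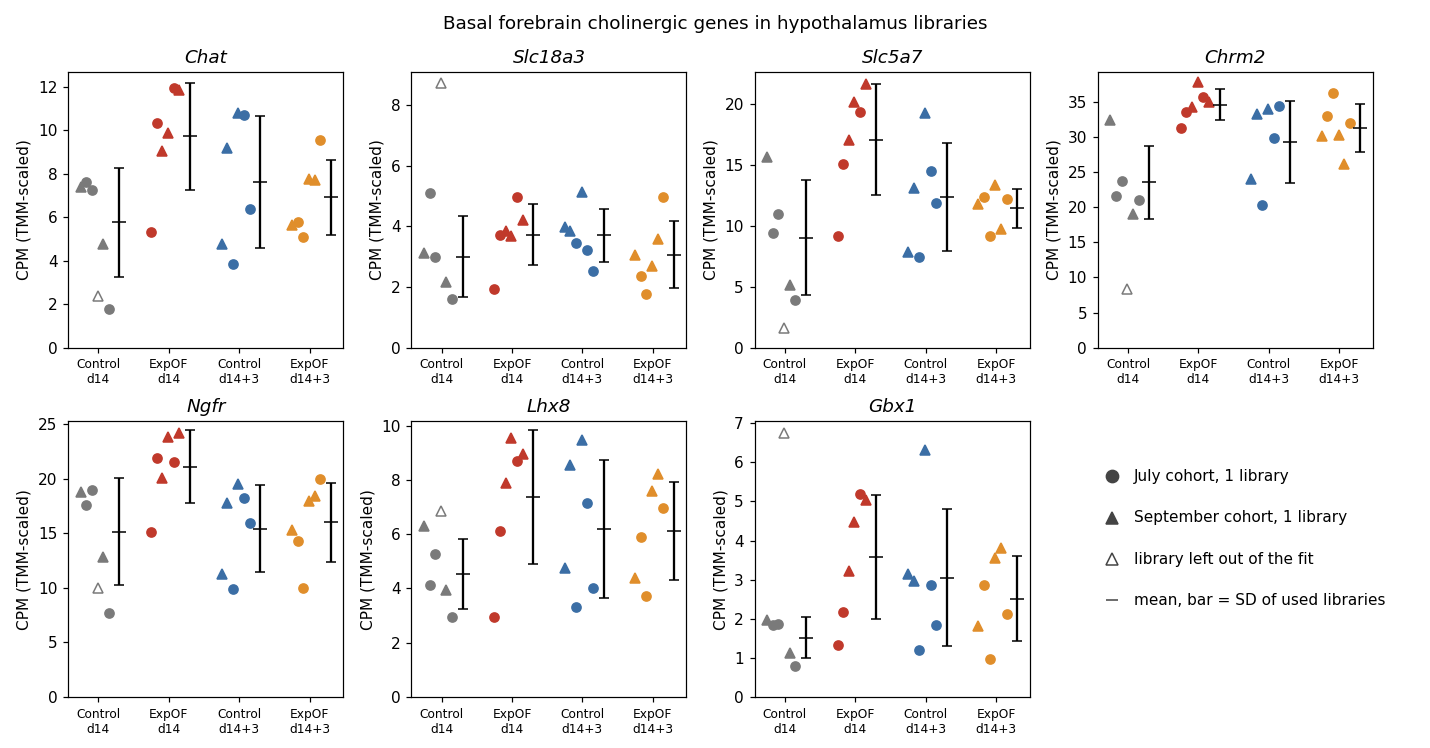
Each panel plots 1 gene, with the group on the x axis and CPM scaled with TMM factors on the y axis; a point is 1 library (circle, July cohort; triangle, September cohort; hollow, Control d14 replicate 4, left out of the fit), and the bar is the mean with its SD over the libraries used. On d14 most ExpOF points of Chat, Slc5a7, Chrm2, Ngfr, Lhx8 and Gbx1 sit above the Control d14 points, with ExpOF d14 replicate 1 the lowest ExpOF point in every panel, and on d14+3 the 2 groups cover each other.

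The synthesis and transport genes were higher in ExpOF than in Control mice on d14, by less for Slc18a3 than for Chat and Slc5a7, and the groups overlapped for all 3. Chat stood at 7.36, 7.63, 7.24, 4.77 and 1.78 CPM in Control d14 replicates 1, 2, 3, 5 and 6. In ExpOF d14 mice it ran from 5.30 over a median of 10.1 to 11.9 CPM. Control replicates 5 and 6 were the low ones, and 5 of the 6 ExpOF mice lay above every control, ExpOF replicate 1 being the exception. Chat was thus 1.69-fold higher (log2 fold change 0.76, SE 0.309), 5.76 ± 2.50 CPM in Control (SD, n = 5) against 9.71 ± 2.44 CPM in ExpOF mice (SD, n = 6).

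Slc5a7 was at 15.7, 9.47, 10.96, 5.15 and 3.94 CPM in the same 5 Control d14 mice. ExpOF d14 mice ran from 9.15 over a median of 18.2 to 21.7 CPM. Again replicates 5 and 6 were the lowest controls, and 4 of 6 ExpOF mice lay above all of them. The fold change was 1.91 (log2 0.93, SE 0.290). Slc18a3 was at 3.12, 5.10, 2.98, 2.17 and 1.61 CPM in Control d14 and from 1.94 over a median of 3.79 to 4.96 CPM in ExpOF d14 mice. No ExpOF mouse exceeded the highest control for this gene, Control replicate 2, and its log2 fold change of 0.30 (SE 0.268) was about as large as its error.

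The receptor genes were also higher in ExpOF than in Control mice on d14. Chrm2 was at 32.3, 21.5, 23.8, 19.1 and 21.0 CPM in Control d14 and from 31.2 over a median of 34.6 to 37.8 CPM in ExpOF d14 mice. All Control mice but replicate 1 lay below every ExpOF mouse, and Chrm2 had the smallest error of the 7 genes (log2 fold change 0.56, SE 0.129, 1.47-fold). Ngfr was at 18.7, 17.6, 19.0, 12.8 and 7.67 CPM in Control d14 and from 15.1 over a median of 21.7 to 24.2 CPM in ExpOF d14 mice. Here too 5 of 6 ExpOF mice lay above every control, ExpOF replicate 1 being the lowest, and the log2 fold change was 0.48 (SE 0.212).

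The transcription factors were also higher in ExpOF than in Control mice on d14. Lhx8 was at 6.29, 4.14, 5.27, 3.93 and 2.96 CPM in Control d14 and from 2.95 over a median of 8.29 to 9.53 CPM in ExpOF d14 mice. ExpOF replicate 1 was level with the lowest control, and 4 of 6 ExpOF mice exceeded all controls (log2 fold change 0.70, SE 0.296). Gbx1 was at 1.96, 1.84, 1.86, 1.12 and 0.804 CPM in Control d14 and from 1.34 over a median of 3.85 to 5.18 CPM in ExpOF d14 mice. With 5 of 6 ExpOF mice above every control, Gbx1 had the largest difference of the 7 genes at 2.34-fold (log2 1.23, SE 0.405).

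For none of the 7 genes did every ExpOF d14 mouse exceed every Control d14 mouse, a pattern that 1.54% of all tested genes showed. Over all 18992 genes, edgeR's quasi-likelihood test called 0.00527% on d14 at a Benjamini-Hochberg adjusted p under 0.05, which is 1 gene, Npy, while 26.7% were past an unadjusted 0.05. The number of genes called on d14 was 196 with DESeq2 and 4220 with edgeR when Control d14 replicate 1 was left out. Nothing is read from these shares for the 7 genes, which were chosen on this contrast. Their median log2 fold change was 0.70, beside -0.02 over all genes tested.

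Control d14 replicates 5 and 6 set much of the size of these differences. They had the lowest levels of all 7 genes among the 5 Control d14 libraries used and also the highest thalamic marker sums, 374 and 339 CPM against 73.8 to 135 CPM in the other 3 controls used and 87.4 to 234 CPM in ExpOF d14 mice. Both belong to extraction round 2, 1 to each cohort. Without the 2 libraries together, a setting chosen after seeing the data, the log2 fold change on d14 was 0.36 for Chat, 0.49 for Slc5a7, 0.18 for Ngfr, 0.47 for Lhx8, 0.41 for Chrm2, 0.87 for Gbx1 and -0.04 for Slc18a3. Another setting chosen after seeing the data took the mean log2 level of the thalamic markers as a covariate in all 23 libraries. It gave a d14 log2 fold change of 0.74 for Chat, 0.95 for Slc5a7, 0.47 for Ngfr and 0.52 for Chrm2. This fit has 1 slope for both days. The Pearson correlation of Chat with the thalamic genes was -0.57 (Ramp3) to -0.36 (Tnnt1) over the d14 libraries. On d14+3 it was -0.10 (Prkcd) to 0.02 (Gbx2). A shared slope need not hold on d14, so this fit cannot settle the part of the thalamic level there. Leaving out replicate 6 alone gave 0.50 for Chat, 0.30 for Ngfr and 0.13 for Slc18a3.

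The library left out by the study did not share 1 direction for these genes. In Control d14 replicate 4, Chat was at 2.39, Slc5a7 at 1.66 and Chrm2 at 8.31 CPM, the last 2 below every library used. The thalamic marker sum of this library was 628 CPM, and its hypothalamic marker sum of 3050 CPM was above every library used. Slc18a3 at 8.73 and Gbx1 at 6.75 CPM were above every library used of any group. With all 24 libraries the d14 log2 fold change was 0.89 for Chat, 1.12 for Slc5a7, 0.72 for Chrm2, 0.57 for Ngfr, 0.61 for Lhx8, 0.70 for Gbx1 and -0.03 for Slc18a3.

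**Figure D2:**
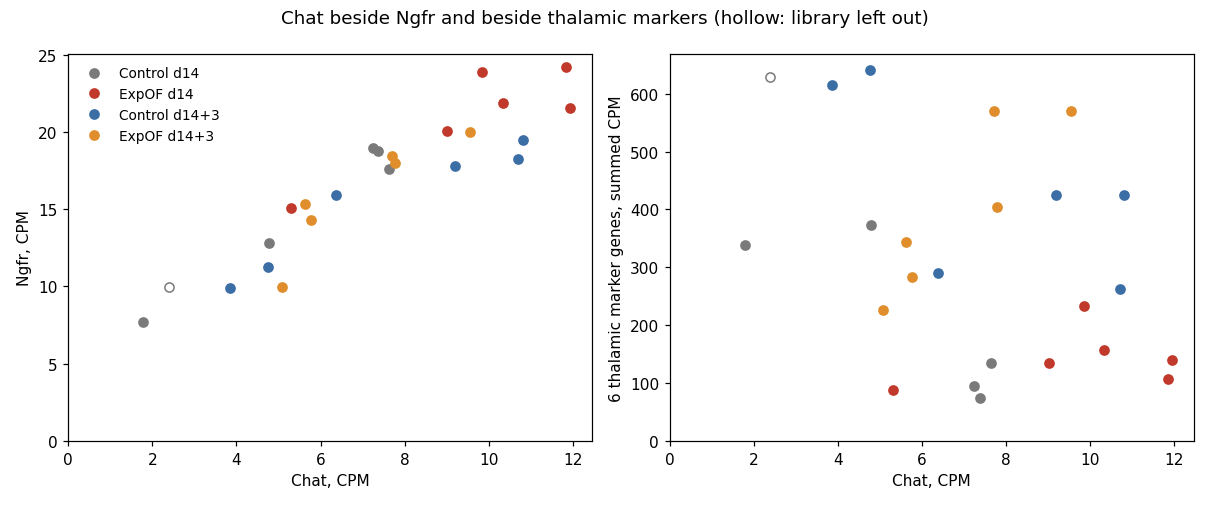
A point is 1 library, coloured by group, with Chat in CPM on both x axes; the left panel has Ngfr in CPM and the right panel the summed CPM of 6 thalamic marker genes on the y axis, and the hollow point is the library left out. Chat and Ngfr lie along 1 line in all 4 groups, and on the right the 2 used Control d14 libraries with the lowest Chat have thalamic sums of 374 and 339 CPM. The d14+3 libraries with thalamic sums of 569 to 640 CPM have Chat from 3.85 to 9.55 CPM.

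The d14+3 libraries were not used to choose the genes, and there the comparison asks whether the difference was still present 3 days after overfeeding ended. None of the 7 genes passed the test between ExpOF d14+3 and Control d14+3 mice in either edgeR or DESeq2, and 0 were past an unadjusted p of 0.05 in either tool. Over all genes, 0% were called by edgeR at an adjusted p under 0.05 and 7.11% were past an unadjusted 0.05, and DESeq2 called 42 genes. The log2 fold changes ran from -0.29 (Slc18a3) to 0.10 (Chrm2), with a median of -0.10 beside 0.01 over all genes tested. The exact permutation test of 6 against 6 mice used below can reach p = 0.00216.

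Chat was at 3.85 to 10.8 CPM in Control d14+3 (median 7.78) and at 5.08 to 9.55 CPM in ExpOF d14+3 mice (median 6.74). The ExpOF mice all fell inside the range of the controls, whose replicates 4 and 5 were the highest and replicate 3 the lowest. The log2 fold change was -0.14 (95% confidence interval -0.75 to 0.47), with an edgeR adjusted p of 0.899 and p = 0.818 in the two-sided exact permutation test. Slc5a7 was at 7.45 to 19.3 CPM in Control (median 12.5) and at 9.19 to 13.4 CPM in ExpOF mice (median 12.01), with a log2 fold change of -0.10 (-0.67 to 0.47; edgeR adjusted p = 0.923). Slc18a3 was at 2.54 to 5.13 CPM in Control (median 3.65) and at 1.78 to 4.95 CPM in ExpOF mice (median 2.88), and its log2 fold change of -0.29 (-0.82 to 0.24) had an edgeR adjusted p of 0.791. The intervals of all 3 genes include differences in either direction.

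Chrm2 was the most tightly measured of the genes, at 20.2 to 34.4 CPM in Control (median 31.5) and 26.1 to 36.2 CPM in ExpOF d14+3 mice (median 31.1). Its log2 fold change was 0.10 (95% confidence interval -0.16 to 0.35, edgeR adjusted p = 0.824). Ngfr was at 9.90 to 19.5 CPM in Control (median 16.8) and 9.97 to 20.0 CPM in ExpOF mice (median 16.7), with a log2 fold change of 0.05 (-0.37 to 0.48, edgeR adjusted p = 0.951). The 2 groups covered nearly the same range for Ngfr, and for Chrm2 the lower end was higher in ExpOF than in Control mice. Lhx8 was at 3.30 to 9.46 CPM in Control (median 5.95) and 3.70 to 8.20 CPM in ExpOF mice (median 6.42), a log2 fold change of -0.02 (-0.60 to 0.56, edgeR adjusted p = 0.990). Gbx1 was at 1.21 to 6.30 CPM in Control (median 2.91) and 0.960 to 3.80 CPM in ExpOF mice (median 2.49), a log2 fold change of -0.27 (-1.04 to 0.50, edgeR adjusted p = 0.840). Its highest value was that of Control d14+3 replicate 4, and without this library the log2 fold change was 0.07.

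RNA integrity differed between the d14+3 groups, with a median RIN of 8.6 in Control and 9.55 in ExpOF mice. With RIN as a covariate the log2 fold change on d14+3 was 0.09 for Chat, 0.10 for Slc5a7 and 0.11 for Lhx8, and none of the 7 genes was called (26 genes of all were), with the lowest edgeR adjusted p at 0.485 for Chrm2.

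**Figure D3:**
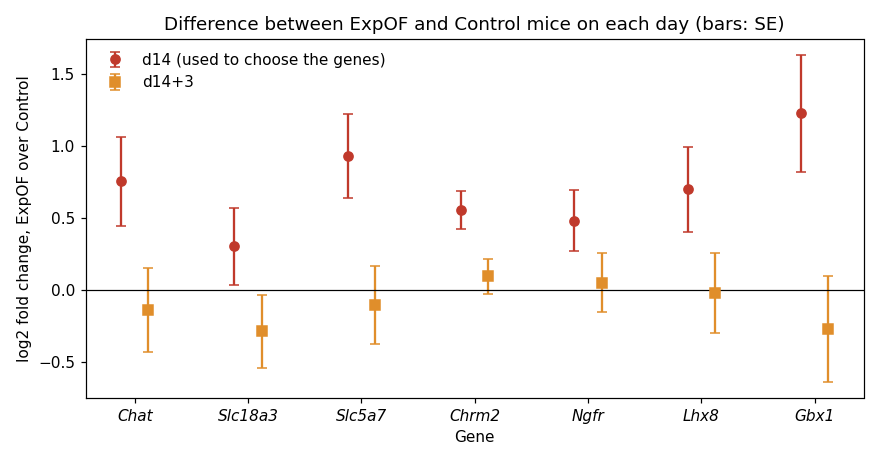
The y axis gives the log2 fold change of ExpOF over Control mice in the edgeR fit, and bars are the SE; circles are d14, the contrast that chose the genes, and squares d14+3. The d14 values run from 0.30 to 1.23 and the d14+3 values from -0.29 to 0.10.

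Between the days, the levels differed in opposite directions in the 2 kinds of mice. In Control mice all 7 genes were higher on d14+3 than on d14, by 0.06 (Ngfr) to 0.87 (Gbx1) on the log2 scale, with 0.46 for Chat and 0.54 for Slc5a7. In ExpOF mice all 7 were lower on d14+3 than on d14, with log2 differences from -0.54 (Slc5a7) to -0.15 (Chrm2) and -0.47 for Chat. These values use the d14 mice that chose the genes and have no test. The thalamic marker sum also differed between the days in Control mice, from a median of 135 CPM on d14 to 425 CPM on d14+3, and in ExpOF mice from 138 to 373 CPM, and its part in these differences was not tested.

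Cohort and extraction round were independent of the rule that chose the genes. All 7 genes were lower in July than in September mice, with log2 differences from -0.60 (Gbx1) to -0.04 (Chrm2), beside a median of 0.00518 over all genes tested. Most of the 7 genes vary together from mouse to mouse (below), so a shared direction is not 7 separate observations. Lhx8 averaged 5.09 CPM in 12 July and 7.23 CPM in 11 September libraries, a log2 difference of -0.46 (SE 0.174) with an unadjusted edgeR p of 0.0154. Gbx1 averaged 2.09 CPM in the 12 July and 3.40 CPM in the 11 September libraries (log2 difference -0.60, SE 0.233). These 2 homeodomain genes were the only ones of the 7 past an unadjusted 0.05 in edgeR and in DESeq2, and none was called after adjustment over all genes (edgeR adjusted p = 1), where edgeR called 0% and 4.28% were past an unadjusted 0.05. The September mean CPM was the higher one for Lhx8 and Gbx1 in each of the 4 groups. When the filter on low counts was relaxed to 1 count over all libraries, edgeR did call both (adjusted p = 9.01e-04 for Lhx8 and 0.00111 for Gbx1) among 236 genes of 39970.

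Between extraction rounds all 7 genes were lower in round 1, with log2 differences from -0.42 (Gbx1) to -0.00128 (Chrm2), beside a median of -0.00308 over all genes tested. Here too the 7 directions are not separate observations. In the d14+3 libraries alone the round difference was -0.63 for Chat (edgeR adjusted p = 1), against -0.22 in all 23 libraries, and the median of the 7 genes was -0.50, against -0.15. In Control d14+3 mice RIN was 9.3 to 9.9 in round 1 and 7.2 to 7.9 in round 2, so round and RIN cannot be told apart there. In the 23 libraries none was past an unadjusted 0.05 in edgeR or DESeq2, and edgeR called 0% of all genes, with 4.08% past an unadjusted 0.05 (29 genes were called by DESeq2).

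Within cohorts, the mean log2 CPM of ExpOF mice exceeded that of Control mice on d14 for all 7 genes in both July and September. For Chat the difference was 0.89 in July (3 against 3 mice) and 0.77 in September (3 ExpOF against 2 Control mice), and for Slc5a7 0.90 and 1.11. Gbx1 differed by 0.78 in July and 1.44 in September, and Slc18a3 by 0.18 and 0.57. These are again descriptions of the contrast that chose the genes. On d14+3 the difference was 0.03 in July and -0.16 in September for Chat, and 0.29 and -0.06 for Chrm2. The test of the difference between cohorts in the d14+3 effect, fitted in the 12 d14+3 libraries over 17930 genes, called none of the 7 genes (edgeR adjusted p = 0.999), and the lowest unadjusted p was 0.196, for Chrm2.

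**Figure D4:**
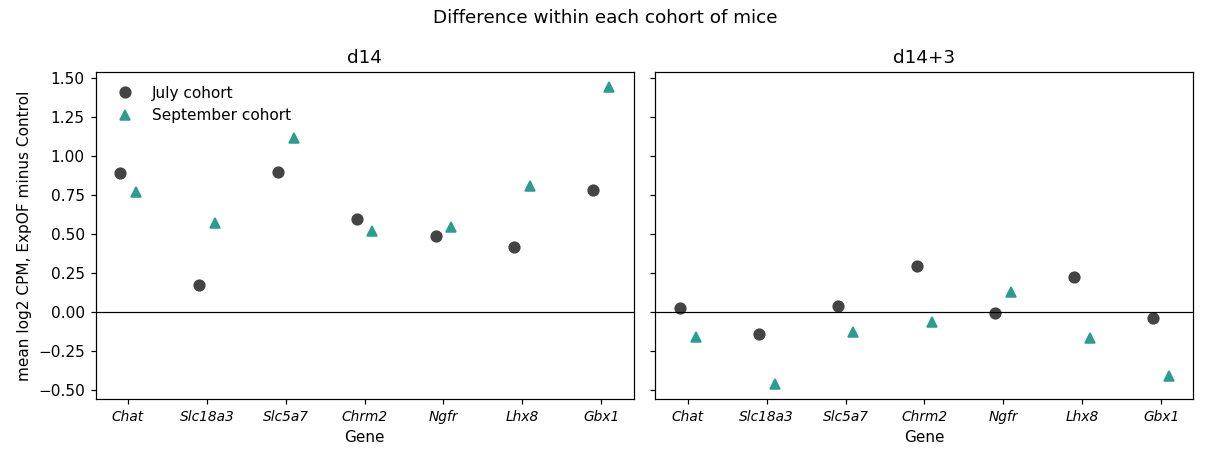
The y axis is the difference in mean log2 CPM, ExpOF minus Control, within the July cohort (circles) and the September cohort (triangles), for d14 on the left and d14+3 on the right. All 14 points on d14 lie above 0, and on d14+3 they lie on both sides of it.

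Within groups the genes varied more between mice than most genes did. The SD of log2 CPM around the d14+3 group means was 0.50 for Chat, 0.54 for Lhx8 and 0.74 for Gbx1, beside a median of 0.21 over all tested genes. Chrm2 was the least variable of the 7 at 0.25. Among all tested genes the 7 ranked from percentile 59.9 (Chrm2) to 97.4 (Gbx1) by this SD. The tested genes were not matched for expression level, and several of the 7 have low counts.

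Most pairs of the 7 genes varied together from mouse to mouse. Over 23 libraries the Pearson correlation of log2 CPM ranged from 0.19 (Slc18a3 with Chrm2) to 0.93 (Chat with Ngfr), with a median of 0.74 over 21 pairs. The 23 libraries include the d14 mice that chose the genes. Correlations and ranks over them are therefore not independent of the choice. Over the 12 d14+3 libraries, which the choice of the genes did not use, the correlation ranged from -0.28 (Slc18a3 with Chrm2) to 0.91 (Chat with Ngfr), with a median of 0.62. Chrm2 with Gbx1 was at 0.10 there. All pairs share the same libraries, with their depth and dissection, and no p is attached. Of 15819 genes with a mean of at least 1 CPM, Ngfr was the closest to Chat over the 23 libraries (r = 0.93, Spearman's rho 0.90), Slc5a7 ranked 3 (r = 0.89), Lhx8 ranked 5 (r = 0.83), Gbx1 ranked 13 (r = 0.77), Slc18a3 ranked 17 (r = 0.72) and Chrm2 ranked 51 (r = 0.63). Without the 2 libraries most extreme in Chat, r with Chat was 0.89 for Ngfr, 0.83 for Slc5a7 and 0.46 for Chrm2. Over the d14+3 libraries alone, Ngfr ranked 2, Lhx8 3 and Slc5a7 5, while Gbx1 ranked 75, Chrm2 407 and Slc18a3 495. Slc18a3 thus had a lower likeness to Chat there (r = 0.48) than over all libraries, although the 2 genes share a locus.

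Outside the 7 genes, the gene most like Chat was Lhx6, a LIM homeodomain factor of medial ganglionic eminence lineages, with r = 0.91 over 23 libraries (rho 0.87) and r = 0.94 over the 12 d14+3 libraries. Others among the 10 nearest over 23 libraries were 2610028E06Rik (0.83), the TALE homeodomain gene Meis2 (0.83), the GABA synthesis gene Gad1 (0.81), Phactr1 (0.81), AI606473 (0.79), the acetyl-CoA producing enzyme Acly (0.78), Bcl11b (0.78) and Zfp128 (0.75). On d14+3 alone the 10 nearest included Lhx6, 2610028E06Rik (0.85), Gm45110, Mkrn3, Bcl11b, Gad1 (0.78), Gm17022, Samd3 and Zfp248 (0.77). Lhx6, 2610028E06Rik, Bcl11b and Gad1 were on both lists. These genes were picked by rank out of all genes, so their r has no test.

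Among 9 genes of acetylcholine synthesis, breakdown and choline supply, 3 were higher and 6 lower in ExpOF mice on either day, none called by edgeR (1 past an unadjusted 0.05 on each day), with median log2 fold changes of -0.07 on d14 and -0.02 on d14+3. Ache, the enzyme that breaks down acetylcholine, was at 290 ± 19.8 CPM in Control d14 (SD, n = 5) and 275 ± 6.05 CPM in ExpOF d14 mice (SD, n = 6), log2 fold change -0.07, and 0.00148 on d14+3. The largest values of the list were 0.25 for Bche and -0.33 for Chkb on d14 and 0.12 for Chka and -0.20 for Colq on d14+3, all on the log2 scale.

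Among the other muscarinic receptors, 4 of 4 were higher on d14 with none called (edgeR). Chrm4 had the largest log2 fold change at 0.54 (edgeR adjusted p = 0.139), and Chrm1 was at 0.00249. On d14+3 Chrm5 was highest at 0.47 (edgeR adjusted p = 0.544), while Chrm1 was at -0.00985 and Chrm4 at -0.00133. Of 16 nicotinic subunits 11 were tested, Chrnd being at 0 in every library. None was called on either day, and the largest log2 values were 0.77 for Chrna2 and -0.96 for Chrna6 on d14, and 0.34 for Chrna6 and -1.17 for Chrnb4 on d14+3.

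Of the genes for neurotrophins and their receptors, 4 of the 7 tested were higher on d14 and 5 on d14+3, and none was called by edgeR on either day. Their median log2 fold change was 0.15 on d14 and 0.08 on d14+3. Ntf3, which encodes neurotrophin-3, had the highest value on d14+3 at 0.55 (edgeR adjusted p = 0.723).

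Transcription factors of the ventral forebrain split. Lhx6, at 15.7 ± 4.33 CPM in Control (SD, n = 5) and 22.3 ± 5.68 CPM in ExpOF d14 mice (SD, n = 6), had a log2 fold change of 0.51 (edgeR adjusted p = 0.184) and of -0.05 on d14+3. Isl1, which acts with Lhx8 in cholinergic specification, was at 0.17 and 0.02, and Nkx2-1, which marks both the medial ganglionic eminence and the hypothalamus, at -0.07 and -0.09. Gbx2, which is also counted among the thalamic markers, had the lowest values at -0.46 and -0.34. Dlx2 was next at -0.33 and -0.26. Zic1 of this list is also counted among the septal markers below. Of the 10 genes, 6 were higher on d14 against 2 on d14+3.

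Markers of regions next to the basal forebrain were compared because a dissection can include them, and their part in the values of the 7 genes was not tested. Septal markers had a median log2 fold change of 0.07 on d14 and -0.14 on d14+3 (5 genes, none called), with Zic1 at 0.32 and -0.23, Crhr2 at -0.16 on d14, and Trpc4 at 0.19 and Zic2 at -0.29 on d14+3. Their summed level was 102 to 131 CPM in Control d14, 98.8 to 170 in ExpOF d14, 127 to 202 in Control d14+3 and 131 to 195 CPM in ExpOF d14+3 mice. Striatal projection neuron markers had medians of -0.07 and -0.10 (14 genes, none called), with Drd1 at 0.32 and -0.20, Drd2 at -0.26 and 0.04, Ppp1r1b at -0.36 on d14, and Rarb at 0.17 and Adora2a at -0.69 on d14+3. The striatal sum was 616 to 666 CPM in Control d14 and 604 to 709 CPM in ExpOF d14 mice, and 607 to 672 and 587 to 667 CPM on d14+3.

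Cortical and hippocampal excitatory markers had medians of -0.04 on d14 and -0.10 on d14+3 over 8 tested genes. Slc17a7, the vesicular glutamate transporter of these neurons, was at -0.70 and -0.32, and Neurod2 at -0.79 and -0.59. None of the 6 thalamic genes was higher in ExpOF mice on either day (medians -0.52 and -0.18), with Tcf7l2 at -0.14 and -0.20, Ramp3 at -0.76 on d14 and Tnnt1 at -0.40 on d14+3, none called. The thalamic sum was 263 to 640 CPM in Control d14+3 and 226 to 571 CPM in ExpOF d14+3 mice.

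The medial habenula also holds cholinergic neurons, and its markers were lower in ExpOF mice on d14+3 without passing the adjusted threshold. All 5 were lower, 4 of them past an unadjusted 0.05 (edgeR, beside 7.11% of all genes), with a median log2 fold change of -0.74. Pou4f1 was at 1.59 ± 1.56 CPM in Control d14+3 and 0.316 ± 0.383 CPM in ExpOF d14+3 mice (SD, n = 6 each), a log2 fold change of -2.49 (SE 0.706, edgeR adjusted p = 0.344). Chrnb4 was at -1.17, Gng8 at -0.74 and Chrna3 at -0.42, and Chrnb4 and Chrna3 are also nicotinic subunits counted above. The summed level of the 5 markers was 25.8 to 60.1 CPM in Control and 23.5 to 47.7 CPM in ExpOF d14+3 mice. Control replicates 1, 3 and 4 stood at 60.1, 51.5 and 44.9 CPM, and the other controls at 25.8 to 27.9 CPM. ExpOF replicate 6 stood at 47.7 CPM and the other ExpOF mice at 23.5 to 29.2 CPM. The group difference thus lay in a few libraries, and its cause was not tested. On d14 the median of the list was 0.06, with Nwd2 at 0.29 and Pou4f1 at -1.28.

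Hypothalamic markers gave the only call among the list genes. Npy, an appetite-raising peptide of the arcuate nucleus, was at 24.3 ± 4.17 CPM in Control (SD, n = 5) and 11.3 ± 1.32 CPM in ExpOF d14 mice (SD, n = 6), a log2 fold change of -1.10 (edgeR adjusted p = 4.69e-05), and of -0.56 on d14+3 (edgeR adjusted p = 0.206; DESeq2 adjusted p = 0.0103). Agrp, made by the same neurons, was at -0.90 on d14 (edgeR adjusted p = 0.117) and was called by DESeq2 (adjusted p = 0.00321). The rest of this list had Sim1 as its highest value at 0.55 on d14 and 0.23 on d14+3, and Avp as the lowest on d14+3 at -0.99, with 2 of 14 genes higher on d14 and 5 on d14+3. Glial, meningeal and pan-neuronal markers were compared as well. The medians were 0.02 and 0.04 for 4 astrocyte, -0.19 and -0.13 for 4 oligodendrocyte, -0.41 and -0.12 for 5 leptomeningeal, -0.31 and 0.20 for 2 tested Schwann cell and -0.01 and -0.02 for 4 pan-neuronal genes on d14 and d14+3. Slc22a6 was the lowest of the leptomeningeal genes on d14 at -0.73, and Col1a1 on d14+3 at -0.59. None of these genes was called by edgeR on either day.

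**Figure D5:**
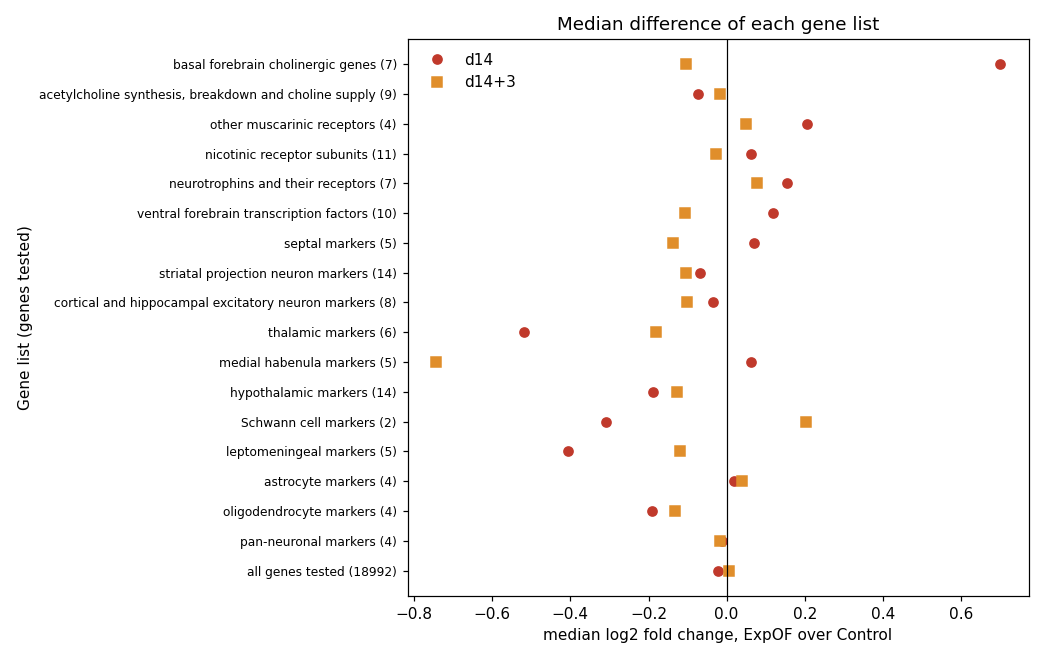
Each line is 1 gene list with the number of genes tested, and the x axis is the median log2 fold change of ExpOF over Control mice on d14 (circles) and d14+3 (squares). The 7 basal forebrain cholinergic genes, chosen on the d14 contrast, have medians of 0.70 and -0.10, thalamic markers of -0.52 and -0.18, and medial habenula markers of 0.06 and -0.74.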

How the data were processed

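Hypothalamic poly-A RNA of 24 mice was sequenced from stranded libraries. According to the methods and the submitters' processing notes, STAR aligned the reads to mm10, and featureCounts 1.6.4 assigned them to genes. The deposited table holds unnormalized counts and the gene lengths in bases. Symbols were matched to 55144 of 55471 genes. From these, edgeR 4.0.16 under R 4.3.3 computed TMM factors, kept genes by filterByExpr (count 10, total 15) and fitted the robust quasi-likelihood model to 4 groups in 23 libraries with 19 residual degrees of freedom, and p-values were adjusted by Benjamini-Hochberg over all 18992 genes tested. Control d14 replicate 4 was identified as the library the study removed by comparing means with the study's own. Its CPM come from a separate TMM normalization of all 24 libraries. Log2 CPM used a prior count of 2, and single genes were also compared by a two-sided exact permutation test on this scale. Intervals rest on the spread between mice, and precision at low counts is limited by depth, with 21 to 1070 counts per library used for the 7 genes. Cohort and extraction round were fitted together with the groups. No 2 libraries of a group agreed within sampling noise (smallest chi-square per degree of freedom 2.95 over 60 pairs). Tests were tried on simulated data.

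The 7 genes and all gene lists were chosen with earlier results of these data known. The genes named are the 7, a set of 12 fixed genes, the highest and lowest gene of each list on each day, and the 10 genes nearest to Chat, and a few that this rule names are not reported here. Alternatives were DESeq2 1.42.0, its size factors, other filters, other sets of libraries, covariates and a replicate block. Promoter sequences and coordinates are those of RefSeq GRCm38.p6, and exon overlaps those of GENCODE vM21. The deposited table names no strand setting.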

Additional observations from a re-analysis of the deposited data

Results flagged for a closer look

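In Control d14 replicate 4, the library left out of the main comparisons, 3 of the 7 genes were above every Control d14 library used. Slc18a3 was at 8.73 CPM (highest control used 5.10 CPM), Gbx1 at 6.75 CPM (highest 1.96 CPM) and Lhx8 at 6.86 CPM (highest 6.29 CPM). Without TMM scaling the levels in that library were 7.71 CPM for Slc18a3 and 5.96 CPM for Gbx1, still above the highest control, and 6.05 CPM for Lhx8, below the highest control of 6.39 CPM. The other 4 genes were below the highest control on both scales. Among 28 combinations of gene and group in the libraries used, 0 had a single library set apart by Dixon's test, where chance gives about 1 in 20. The diet effect on d14+3 was called as different between cohorts for none of the 7 genes in edgeR's test of the interaction (lowest unadjusted p 0.196).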

How the results depend on the processing

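On d14 the median log2 fold change of the 7 genes was 0.51 to 0.87 when 1 library was left out, 0.41 to 0.79 under the other alternatives and 0.56 with a replicate block. Slc18a3 changed sign, to -0.0271 with all 24 libraries and -0.0415 without the 2 Control d14 libraries highest in thalamic markers, an alternative chosen after seeing the data like the thalamic covariate. On d14+3, 0 of the 7 genes were called under any alternative, and their median was -0.22 to 0.07 with 1 library left out, 0.10 with RIN as a covariate and -0.08 with the replicate block. Replicate numbers did not pair the mice (correlation of deviations -0.21 to -0.01 on d14 and -0.33 to 0.30 on d14+3), and the block changed no call of the 7 genes.

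Differences on d14+3 changed sign with RIN as a covariate for Chat (0.0903), Slc5a7 (0.0970) and Lhx8 (0.110), in July mice alone for Gbx1 (0.0290), Lhx8 (0.201) and Slc5a7 (0.00543), and in September mice alone for Chrm2 (-0.0832). With 1 library left out they ran from -0.438 to 0.0717 for Gbx1, -0.154 to 0.137 for Lhx8, -0.0498 to 0.157 for Ngfr and -0.216 to 0.0683 for Slc5a7. The cohort difference of Chrm2 was 0.0225 with all 24 libraries and 0.0542 in d14+3 libraries alone. Its round difference was 0.0806 with all 24 libraries, 2.84e-04 with DESeq2 size factors, 6.67e-04 with DESeq2, 0.00304 with at least 10 counts in every library and 0.0538 with RIN, and that of Slc5a7 was 0.0503 with all 24 libraries. For the cohort comparison, a filter of 1 count over all libraries gave 2 calls among the 7 genes. Among 109 other list genes, the 1 call on d14 became 2 with DESeq2 and 0 in July or in September mice alone, and the 0 calls on d14+3 became 1 with DESeq2. The cause of these changes was not tested. Among the libraries used, the lowest counts were 21 for Gbx1 and 39 for Slc18a3.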
